A study of Mus musculus with 16 samples.

Results

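MommeD1 is a nonsense allele of Smchd1, a gene on mouse chromosome 17 that encodes a structural maintenance of chromosomes hinge domain protein required for X inactivation. The samples described here are the 8 XX (female) arrays of a series of 16, namely 4 from MommeD1 XX embryos and 4 from wildtype XX embryos, chosen by the genotype and sex in the sample labels. All were whole FVB/n embryos at E9.5 from intercrosses of heterozygotes, with 1 embryo on each array, and the MommeD1 embryos were homozygous for the allele while the wildtype embryos carried none. The other 8 arrays, 4 MommeD1 XY and 4 wildtype XY, entered the same fit to share its estimate of spread and served as the comparison for the XX effect. RNA was hybridised to Illumina mouse expression BeadChips on 2 chips, each with 2 arrays of every group. Genes were read on the deposited log2 scale from 1 probe each, the one with the highest mean among probes above 7 on at least 4 of the 16 arrays, which left 6999 genes, of which 6758 were autosomal. Autosomal genes are described here, by tissue, growth and stress programme.

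Smchd1 is a chromatin protein that acts on the inactive X chromosome and at clustered autosomal genes, and homozygous MommeD1 XX embryos are known to die around midgestation while XY embryos can survive longer. The transcription factor p53 is stabilised by DNA damage and many other stresses, and it induces genes that halt the cell cycle, limit growth signalling, repair DNA or start apoptosis. Other stresses act through their own factors: heavy metals through Mtf1 on the metallothionein genes, and amino acid shortage or misfolded protein through Atf4 on amino acid supply genes. At this stage the embryo has a beating heart, a circulation of primitive red cells, somites, an early neural tube and forelimb buds.

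The mutated gene was read first. Smchd1 stood at 7.34, 7.54, 7.44 and 7.60 on the MommeD1 XX arrays, against 9.98, 9.78, 9.90 and 9.96 on the wildtype XX arrays. The groups were far apart, with a log2 fold change of -2.43 ± 0.07 (SE, n = 4 each), which is 5.38-fold lower in MommeD1 (limma adjusted p = 6.12e-15). Every array had a median of 6.34, and values ran between 5.26 and 15 over the whole table. Replicates correlated at 0.9908 to 0.9949 within the MommeD1 XX group and 0.9932 to 0.9959 within the wildtype XX group (Pearson r across probes, which are not independent). Arrays differed in transcripts of the yolk sac endoderm, an extra-embryonic tissue that was removed from the embryos for genotyping. MommeD1 XX array 2 was the highest of the XX arrays for these transcripts, and results that lean on it are given with and without it.

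Of the 6758 autosomal genes, 452 passed an adjusted p of 0.05 in limma (6.69%), 220 of them higher in MommeD1 XX embryos (3.26%) and 232 lower (3.43%, Smchd1 included). The changes were small: their median size was 0.278 on the log2 scale, 168 exceeded 0.3 and 18 exceeded 0.5, of which 15 were rises and 3 were falls. The MommeD1 and wildtype XX arrays did not overlap for 402 of the 452, while over all autosomal genes 969 did not overlap (14.3%). At an unadjusted p under 0.05 there were 1635 autosomal genes (24.2%), and the median autosomal log2 fold change was -0.0122 with 46.7% of genes above 0. The count was lower in each of the 8 fits that left out 1 XX array, which also have fewer arrays to call from. It ran between 239 without wildtype XX array 3 and 384 without wildtype XX array 2, and was 254 without MommeD1 XX array 2. Of the 452 genes, 152 (33.6%) passed in all 8 fits.

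The XX effect was set against the XY effect in the same fit. In the XY embryos 8 autosomal genes passed (0.118%), and all 8 were among the 452 that passed in XX embryos. Of the 220 genes that rose in XX embryos, 196 (89.1%) had a positive log2 fold change in XY embryos, with a median of 0.291 in XX and 0.115 in XY. Of the 232 that fell in XX, 206 (88.8%) were negative in XY, with medians of -0.265 in XX and -0.10 in XY, whereas 50.4% of all autosomal genes were positive in XY. Genes picked for a call in XX start from estimates that are high in size there, so the gap between these medians was not read as a difference of effects. The difference itself, tested gene by gene, passed for 4 autosomal genes (0.0592%): Cdkn1a, Ccng1, Phlda3 and Ngfr. With 1 XX array left out this count ran between 2 and 7, and Cdkn1a and Ccng1 passed in all 8 such fits, Phlda3 in all but 1 and Ngfr in all but 5.

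Of the stress lists, the p53 targets held the most calls in the XX embryos. Of 25 p53 target genes tested, 9 rose (36%, against 3.26% of all autosomal genes), none fell and 16 did not pass. At an unadjusted p under 0.05 in limma there were 13 (52%, against 24.2%). The stress lists together held 16 calls among 145 distinct genes (11%, against 6.69%). These lists were written with earlier results of these data known, so the shares were not tested. The median log2 fold change of the 25 targets was 0.146, against -0.0122 for all autosomal genes and 0.022 for the same 25 genes in XY embryos. Cdkn1a encodes p21, an inhibitor of cyclin-dependent kinases that stops cells in G1, and Ccng1 encodes cyclin G1, which takes part in a feedback loop on Mdm2 and p53. Stretches upstream of both gene starts are printed because the genes are known p53 targets and rose in XX embryos, with matches to the p53 decamer (its recognition motif, searched on both strands) in capitals, each read 5′ to 3′ on the gene's own strand from RefSeq promoters on GRCm38.p6. Cdkn1a had 2 promoters, of which 1 held matches, and the stretch printed is from that one. It lies at chr17:29090879-29090978 on the plus strand and ends at the base before that promoter's start, with matches beginning at -73 and -51. The Ccng1 stretch lies at chr11:40755387-40755486 on the minus strand, from -200 to -101, with 1 match beginning at -185.
Cdkn1a: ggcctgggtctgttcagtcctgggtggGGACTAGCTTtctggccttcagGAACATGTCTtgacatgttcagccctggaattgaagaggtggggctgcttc
Ccng1: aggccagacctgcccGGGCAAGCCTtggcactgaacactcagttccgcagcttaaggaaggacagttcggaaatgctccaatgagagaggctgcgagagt

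The p53 decamer was found in 8.36% of the 32851 promoters in the table, each 250 bases before to 50 after a start, so a match is a description of the letters and no evidence of binding. Rps27l also had a match, in 1 of its 2 promoters, and the windows of Phlda3, Dcxr, Ak1 and Ercc5 had none. Cdkn1a stood at 8.97, 9.11, 8.92 and 9.44 on the MommeD1 XX arrays, against 8.10, 8.01, 8.25 and 8.30 on the wildtype XX arrays. The lowest MommeD1 value lay well above the highest wildtype value, and the rise was 0.95 ± 0.10 on the log2 scale, or 1.93-fold (adjusted p = 3.59e-06). The other kept probe of Cdkn1a gave a smaller rise of 0.40 (limma adjusted p = 0.00713 over all kept probes). In XY embryos the log2 fold change was 0.08, and the difference between the XX and XY effects was 0.87 ± 0.14 (limma adjusted p = 0.00366). With the kept probes of Cdkn1a averaged, this difference was 0.585 (limma adjusted p = 0.0156). Ccng1 read 10.61, 10.86, 10.38 and 10.66 in MommeD1 XX embryos, against 9.78, 9.65, 9.70 and 9.94 in wildtype XX embryos. Its groups were again separate, at 1.81-fold higher in MommeD1 (adjusted p = 5.82e-06), with a log2 fold change of 0.86 in XX and 0.18 in XY and a difference of 0.68 ± 0.13 (adjusted p = 0.0177).

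Phlda3, a pleckstrin homology protein that restrains Akt, read 8.73, 8.68, 8.65 and 8.84 on the MommeD1 XX arrays, against 7.91, 7.89, 7.98 and 8.12 on the wildtype XX arrays. It rose 1.68-fold with no overlap (adjusted p = 1.07e-06), by 0.75 in XX against 0.24 in XY on the log2 scale, and the difference of 0.51 ± 0.10 passed (adjusted p = 0.0171). That difference missed the threshold without wildtype XX array 1 (adjusted p = 0.0519) and without the 3 arrays that had most yolk sac transcript (adjusted p = 0.0637). Zmat3, a zinc finger RNA-binding protein, read 9.57, 9.84, 9.63 and 9.93 in MommeD1 XX embryos, against 9.19, 9.09, 9.02 and 9.09 in wildtype XX embryos, a rise of 1.57-fold (adjusted p = 7.89e-05). Its XX and XY effects, 0.65 and 0.15, differed by 0.50, which did not pass (adjusted p = 0.0781). The remaining 5 were smaller rises with log2 fold changes of 0.26 to 0.37: Trp53inp1, which promotes stress-induced arrest and autophagy, Dcxr, a carbonyl reductase, Ak1, an adenylate kinase, Rps27l, a ribosomal protein paralogue, and Ercc5, the XPG endonuclease of nucleotide excision repair. Of these, Trp53inp1 and Rps27l overlapped between the groups. Ercc5 and Rps27l missed the threshold without any of 4 arrays in turn and Ak1 without any of 7 (highest adjusted p 0.0686, 0.0968 and 0.0826).

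**Figure D1:**
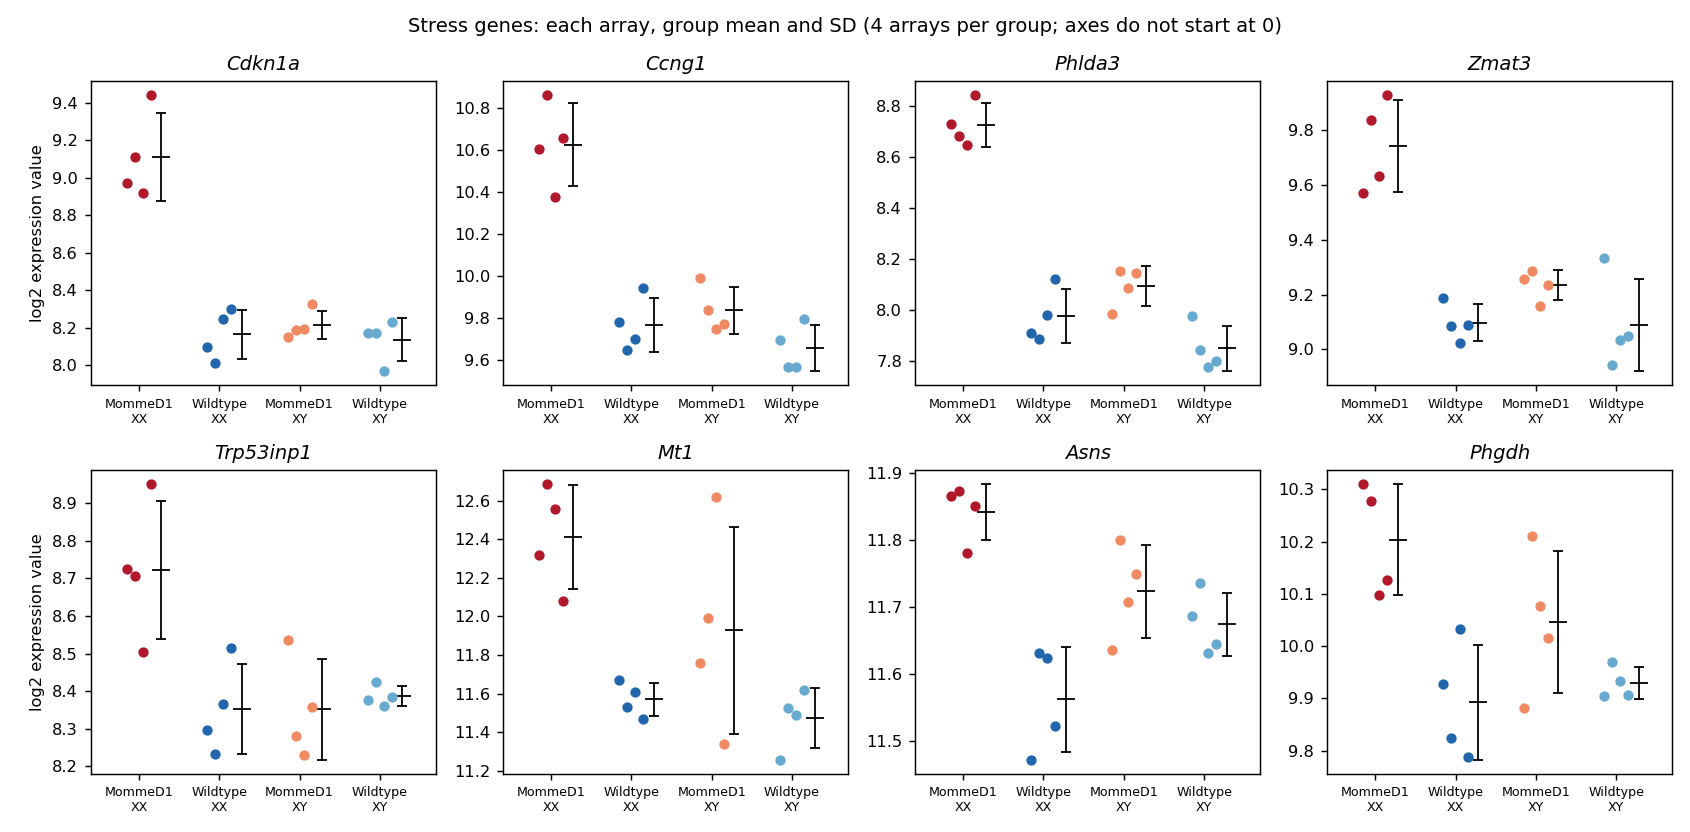
Log2 expression value (y axis, not starting at 0) of each array for 8 stress-related genes, with MommeD1 XX, wildtype XX, MommeD1 XY and wildtype XY from left to right, points for the 4 arrays of a group and bars for the mean and SD. The MommeD1 XX points of Cdkn1a, between 8.92 and 9.44, all lie above the wildtype XX points, between 8.01 and 8.30.

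Other known p53 targets did not pass. Mdm2, the ubiquitin ligase that degrades p53, had a log2 fold change of -0.15 (adjusted p = 0.116), Bbc3, the pro-apoptotic Puma, 0.02 (adjusted p = 0.914), and Sesn1, a sestrin that restrains TOR signalling, -0.08 (adjusted p = 0.586). The mean of the 25 targets on each array, centred on the gene means, was 0.0932, 0.121, 0.0885 and 0.129 on the MommeD1 XX arrays, against -0.0831, -0.159, -0.105 and -0.0842 on the wildtype XX arrays. The groups did not overlap on this score, but the median over the 25 genes was 0.0876 without MommeD1 XX array 3. Of 10 p53 regulators, among them the kinases Atm (-0.02) and Chek2 (-0.03) and the adaptor Trp53bp1 (-0.19), limma called none. An unadjusted p below 0.05 was reached by 2 (20%, against 24.2% of all autosomal genes). Trp53 itself was not among the genes tested.

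**Figure D2:**
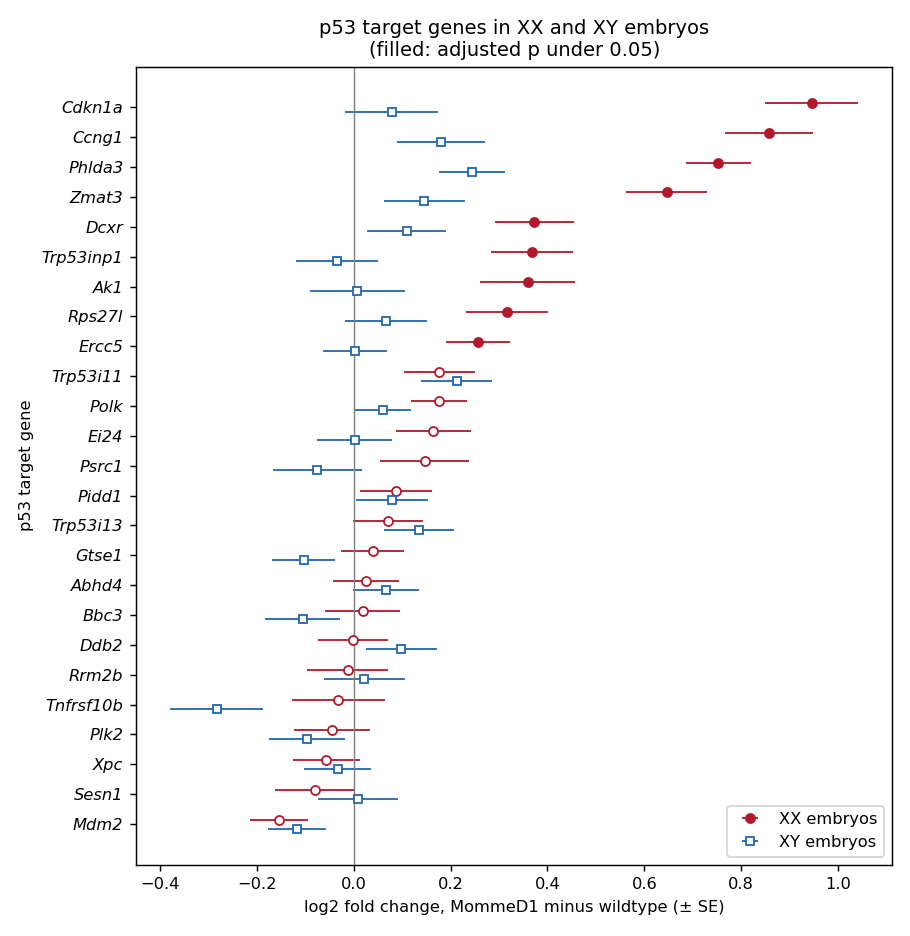
Log2 fold change of each tested p53 target gene in XX embryos and in XY embryos (MommeD1 minus wildtype), with standard errors. Cdkn1a, Ccng1 and Phlda3 have the XX values 0.95, 0.86 and 0.75, each above its XY value of 0.08, 0.18 and 0.24.

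Of 21 core apoptosis genes 1 passed (4.76%), against 6.69% of all autosomal genes, and 5 had an unadjusted p under 0.05 (23.8%, against 24.2%). The gene past the threshold was the caspase activator Apaf1, which fell by 0.27 on the log2 scale (adjusted p = 0.0174) with groups that did not overlap; without wildtype XX array 4 it missed the threshold (adjusted p = 0.0567). Casp9, the caspase that Apaf1 activates, had a log2 fold change of -0.02, and Bcl2l11, the pro-apoptotic Bim, -0.29 (adjusted p = 0.0635). The other kept probe of Bcl2l11 gave -0.36 and passed over all kept probes (limma adjusted p = 0.0113), and the mean of both probes gave -0.32 (adjusted p = 0.00972). The list median was -0.024, close to that of all autosomal genes.

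Metal stress genes held 1 rise (11.1% of those tested) and amino acid supply genes 3 (15%), against 6.69% of all autosomal genes called. Mt1 encodes metallothionein 1, a metal-binding protein induced by zinc, glucocorticoids and oxidative stress, and Asns encodes asparagine synthetase, a target of Atf4. Parts of both promoters are printed because each gene rose and carries a match to the motif of its known factor, given in capitals: the metal response element (TGCACNC or TGCGCNC) for Mt1 at chr8:94178989-94179088 on the plus strand, and TGATGNAA for Asns at chr6:7693210-7693309 on the minus strand, both from -100 to -1 and both searched on both strands.
Mt1: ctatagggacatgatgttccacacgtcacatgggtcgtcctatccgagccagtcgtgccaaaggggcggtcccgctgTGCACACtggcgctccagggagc
Asns: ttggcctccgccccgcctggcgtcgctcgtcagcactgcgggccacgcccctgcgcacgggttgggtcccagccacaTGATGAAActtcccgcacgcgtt

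In the RefSeq promoters the metal response element was found in 25.7% and the Atf4 motif in 3.97%, and the whole Mt1 window held 3 of the metal response elements. The promoter of Slc30a1, which did not pass, held 2 such elements. Phgdh and Cebpb, described below, rose with no Atf4 match in their windows. Mt1 read 12.32, 12.69, 12.56 and 12.08 on the MommeD1 XX arrays, against 11.67, 11.53, 11.61 and 11.47 on the wildtype XX arrays. It rose 1.79-fold with no overlap (log2 fold change 0.84 ± 0.18, adjusted p = 0.00856), and its XY value of 0.45 left a difference of 0.39 that did not pass (adjusted p = 0.752). None of the other 8 metallothionein and zinc transport genes passed; Slc30a1, a zinc exporter, had a log2 fold change of 0.19 (adjusted p = 0.404), and the list median was 0.031.

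The integrated stress response and amino acid supply list had 3 rises and no falls among 20 genes (15% called, against 6.69% of all autosomal genes), with a median of 0.067. Asns read 11.87, 11.87, 11.78 and 11.85 in MommeD1 XX embryos, against 11.47, 11.63, 11.62 and 11.52 in wildtype XX embryos. These values did not overlap, for a rise of 0.28 ± 0.06 on the log2 scale (adjusted p = 0.00577), a call that ended when its kept probes were averaged. Phgdh, the first enzyme of serine synthesis, rose by 0.31 (adjusted p = 0.0152), and Cebpb, a bZIP transcription factor, by 0.23 (adjusted p = 0.0333). The Cebpb call was lost without any of 6 arrays in turn (adjusted p up to 0.104). The factors at the head of this response did not pass: Atf4 had a log2 fold change of 0.14 and Ddit3, the stress factor Chop, -0.17. Both were read near the filter level of 7, where a change could be missed. The MommeD1 XX and wildtype XX means were 7.455 and 7.317 for Atf4, and 6.841 and 7.012 for Ddit3. The list median was 0.040 without wildtype XX array 4.

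Other stress lists held few calls. Among 14 endoplasmic reticulum genes 2 passed (14.3%, against 6.69% of all autosomal genes). Xbp1, a transcription factor of the unfolded protein response, fell by 0.34 (adjusted p = 0.0479, groups overlapping). Syvn1, a ubiquitin ligase of endoplasmic reticulum degradation, fell by 0.27 (adjusted p = 0.0182, not overlapping). Syvn1 missed the threshold without wildtype XX array 4 (adjusted p = 0.0504) and Xbp1 without any of 7 arrays (adjusted p up to 0.135), while the chaperone Hspa5 had a log2 fold change of 0.17. Hspa5 was read near the filter level of 7, with means of 6.992 in MommeD1 XX and 6.827 in wildtype XX embryos. Of 11 heat shock genes limma called none, and 4 reached an unadjusted p below 0.05 (36.4%, against 24.2% of all autosomal genes). Hsph1 had -0.31 (adjusted p = 0.0549) and Hspb1 0.23 (adjusted p = 0.132). Of 15 oxidative stress genes none passed, 4 with an unadjusted p under 0.05 (26.7%). None of 20 hypoxia and glycolysis genes passed either, 5 with an unadjusted p under 0.05 (25%). Hmox1, a haem oxygenase, had 0.14, Ldha, a lactate dehydrogenase, 0.19 (adjusted p = 0.0747), Slc2a1, a glucose transporter, 0.06, and Vegfa, an angiogenic factor, 0.06. The Hmox1 means also lay near the filter level, at 7.14 in MommeD1 XX and 7.003 in wildtype XX embryos.

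Over the growth and proliferation lists 21 of 286 genes passed (7.34%), near the 6.69% of all autosomal genes. Among 33 DNA replication genes Rpa3, a subunit of the single-strand binding protein, rose by 0.20 (adjusted p = 0.0478) and none fell, with a median of -0.025; that call was lost without any of 6 arrays (adjusted p up to 0.129). Mcm2, a replicative helicase subunit, had a log2 fold change of -0.13 and Pcna, the sliding clamp, 0.16. Of 22 mitosis genes 17 were negative, with a median of -0.079, while 46.7% of all autosomal genes were positive. Of the 22, 1 passed (4.55%, against 6.69% of all autosomal genes): Plk1, the mitotic kinase. Plk1 read 11.998, 11.90, 12.07 and 11.95 on the MommeD1 XX arrays, against 12.21, 12.18, 12.26 and 12.20 on the wildtype XX arrays. The groups were separate, and Plk1 fell by 0.23 on the log2 scale (adjusted p = 0.0152), although not without MommeD1 XX array 2 (adjusted p = 0.0511). Mean mitosis scores ran between -0.0532 and -0.0184 in MommeD1 XX embryos and between 0.0179 and 0.0714 in wildtype XX embryos, without overlap. Such separation was not particular to this list. It was also seen for the p53 target, limb bud, integrated stress response, Wnt, and bone morphogenetic protein and transforming growth factor lists. The hypoxia and glycolysis list, in which no gene passed, showed it as well.

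None of 18 cyclins and cyclin-dependent kinase inhibitors besides Cdkn1a, which was counted with the p53 targets, was called by limma. An unadjusted p below 0.05 was reached by 4 (22.2%, against 24.2% of all autosomal genes). Ccnd1, cyclin D1, had a log2 fold change of 0.12. Its other kept probes gave 0.23 and -0.035 (limma adjusted p = 0.0429 and 0.767 over all kept probes). Cdkn1c, the imprinted inhibitor p57, had -0.25 (adjusted p = 0.133) and Rb1, the retinoblastoma protein, 0.02. In the insulin-like growth factor and TOR list 2 of 18 rose and 2 fell (22.2% called, against 6.69% of all autosomal genes). Igfbp2, a binding protein for insulin-like growth factors, rose by 0.30 (adjusted p = 0.0243) and Rheb, the GTPase that activates TOR, by 0.20 (adjusted p = 0.0456), while the receptor substrate Irs2 fell by 0.27 (adjusted p = 0.0273) and Rictor, a subunit of TOR complex 2, fell by 0.21 (adjusted p = 0.0452). Each of these 4 calls was lost without any of 4 to 7 arrays in turn (adjusted p up to 0.131). Igf2, the growth factor itself, had 0.03, its receptor Igf1r -0.26 (adjusted p = 0.0745), Mtor -0.18 and the TOR inhibitor Ddit4 0.41 (adjusted p = 0.0627).

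Rpl7a had the lowest log2 fold change of the ribosomal protein genes. Rpl7a, a protein of the large ribosomal subunit, read 12.43, 12.67, 12.21 and 12.40 on the MommeD1 XX arrays, against 13.07, 13.06, 13.02 and 13.05 on the wildtype XX arrays. The wildtype values were tightly grouped and above every MommeD1 value, and the gene was 1.54-fold lower in MommeD1 (log2 fold change -0.62 ± 0.11, adjusted p = 0.00245), with -0.50 in XY embryos (adjusted p = 0.089). Of 49 ribosomal protein genes 4 fell (Rpl7a, Rpl13a, Rpl24 and Rps15a) and 1 rose (Rps13, by 0.26), or 10.2% called against 6.69% of all autosomal genes. The median of the 49 was -0.010, close to that of all autosomal genes. Rpl24 fell by 0.29 (adjusted p = 0.0107) and Rpl13a by 0.26 (adjusted p = 0.0276), Rps15a fell by 0.30 (adjusted p = 0.0325) with groups that overlapped, and Rpl13a and Rps15a missed the threshold without any of 5 and 6 arrays in turn (adjusted p up to 0.0879 and 0.105). Ribosomal protein genes have many near-identical copies in the genome, and which of them each probe reads was not tested. Among ribosome biogenesis genes Nhp2, a protein of H/ACA ribonucleoproteins, rose by 0.32 (adjusted p = 0.00636), and Heatr1, a nucleolar protein of ribosomal RNA synthesis, fell by 0.30 (adjusted p = 0.0198), a call lost without MommeD1 XX array 1 or wildtype XX array 3 (adjusted p up to 0.0628). Npm1, nucleophosmin, had -0.04 and Fbl, fibrillarin, -0.22 (adjusted p = 0.0593). Of 27 translation genes 1 passed: Eif4g2, an initiation factor, which fell by 0.31 (adjusted p = 0.0119), a call that also ended when its probes were averaged.

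Respiratory chain subunits leaned upward by a small amount. Of 67 subunits 48 were positive, while 46.7% of all autosomal genes were, and 4 passed (5.97%, against 6.69%). The median of 0.056 was close to the 0.058 of the same genes in XY embryos. Scores overlapped between the groups, at -0.0252 to 0.0644 in MommeD1 XX and -0.0612 to 0.00305 in wildtype XX embryos. Cox5a, Cox6b2 and Cox6c, subunits of cytochrome c oxidase, rose by 0.27, 0.39 and 0.33 (adjusted p = 0.0124, 0.00851 and 0.0139), and Atp5o, a subunit of ATP synthase, fell by 0.31 (adjusted p = 0.0174). Cox6c missed the threshold without wildtype XX array 3 (adjusted p = 0.0523), and Atp5o without that array, MommeD1 XX array 2 or MommeD1 XX array 4 (adjusted p up to 0.0592). In sterol synthesis Lss, lanosterol synthase, and Msmo1, a sterol oxidase, rose by 0.29 and 0.32 (adjusted p = 0.0296 and 0.0181), and Stard4, a sterol carrier, fell by 0.33 (adjusted p = 0.0489). These 3 calls were each lost without 2 to 6 arrays in turn (adjusted p up to 0.14).

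**Figure D3:**
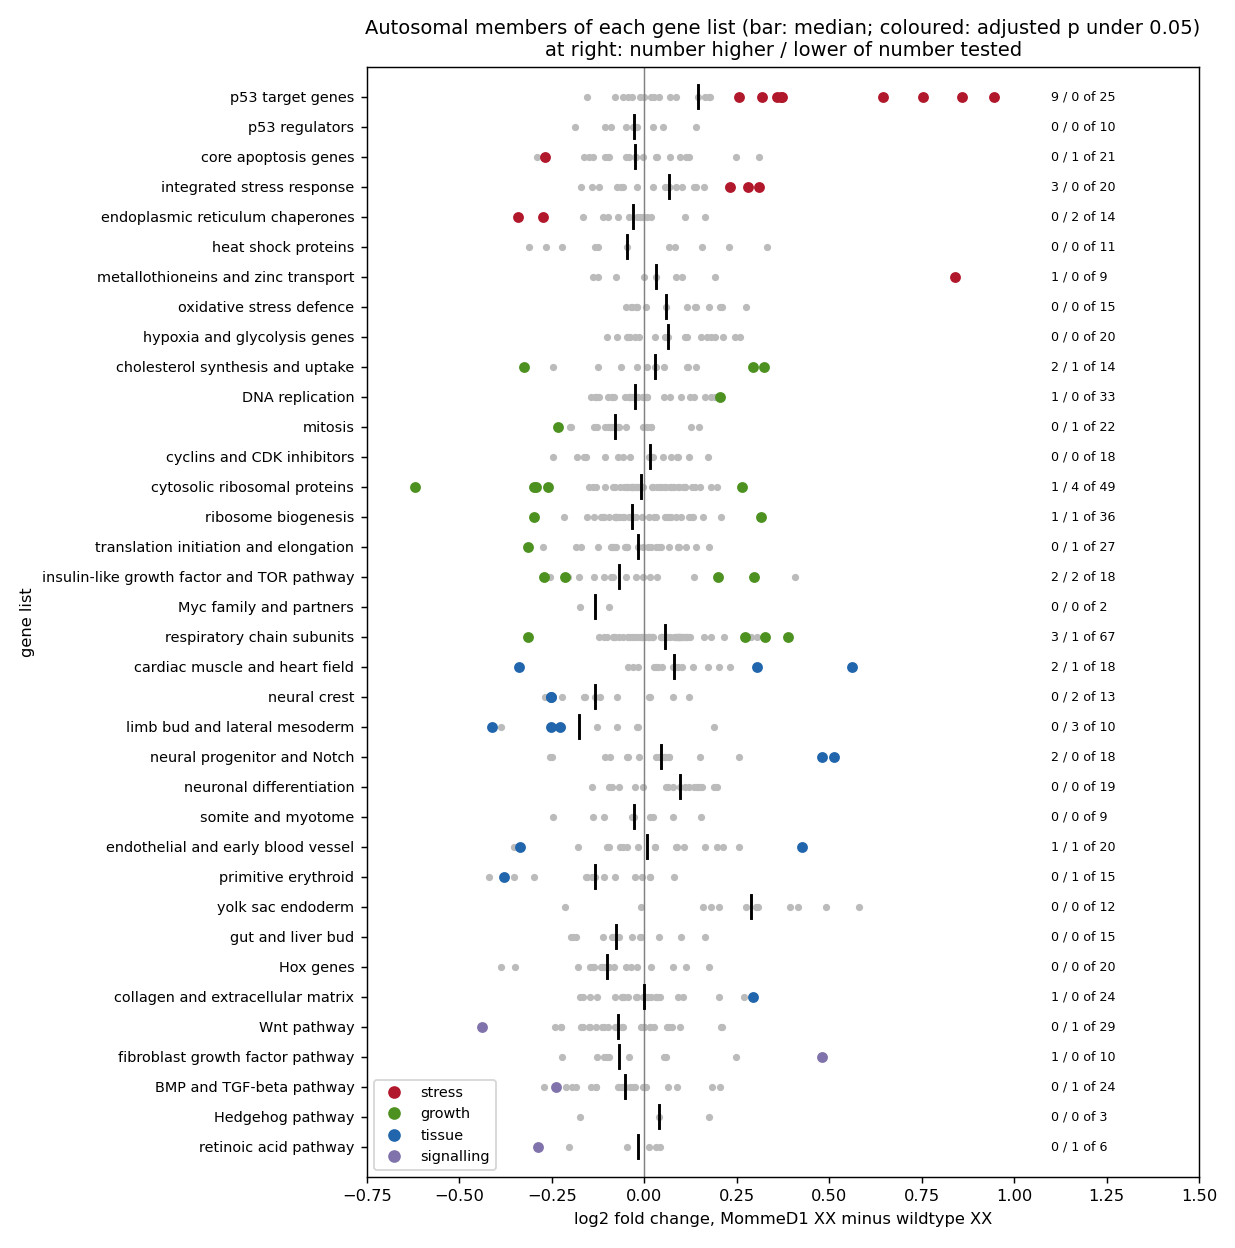
Log2 fold change (MommeD1 minus wildtype) of the members of each gene list in XX embryos, a point per gene, with the list median marked. The p53 targets have a median of 0.146 and the limb bud list one of -0.176, against -0.0122 for all autosomal genes.

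The samples were whole embryos, so fewer cells of a type and less RNA per cell cannot be told apart. The tissue lists together held 13 calls among 187 distinct genes (6.95%), near the 6.69% of all autosomal genes. Of 10 limb bud and lateral mesoderm genes 3 fell (30%), 1 was positive and the median was -0.176, against 0.020 in XY embryos. Prrx1, a homeobox gene of limb mesenchyme, read 7.93, 7.47, 7.52 and 7.45 on the MommeD1 XX arrays, against 8.09, 7.99, 7.97 and 7.96 on the wildtype XX arrays. MommeD1 array 1 lay near the wildtype arrays and the others well below, and the fall was 0.41 ± 0.09 on the log2 scale, so Prrx1 was 1.33-fold lower in MommeD1 (adjusted p = 0.00931). The other kept probes of Prrx1 gave smaller falls, -0.31 and -0.14 (limma adjusted p = 0.0317 and 0.2995 over all kept probes). Msx1, a homeobox gene of limb and craniofacial mesenchyme that was also in the neural crest list, fell by 0.25 (adjusted p = 0.017), and Tbx3, a T-box gene of the limb margin, fell by 0.23 (adjusted p = 0.0241). In XY embryos the log2 fold changes were -0.11 for Prrx1, -0.22 for Msx1 and -0.03 for Tbx3, and the difference from XX passed for none of them. Msx1 missed the threshold without MommeD1 XX array 2 or wildtype XX array 3 (adjusted p up to 0.0525), and Tbx3 without any of 4 arrays (adjusted p up to 0.0746). The growth factors Fgf8 (-0.13) and Fgf10 (-0.22) of the limb did not pass, but the other kept probe of Fgf10 gave -0.27 and did (limma adjusted p = 0.0449 over all kept probes), as did the mean of both (-0.25, adjusted p = 0.0477). Limb scores ran between -0.127 and 0.0177 in MommeD1 XX embryos and between 0.0384 and 0.131 in wildtype XX embryos, and the list median stayed between -0.195 and -0.139 when any 1 array was left out.

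Neural crest genes had 2 falls and no rise among 13 (15.4% called, against 6.69% of all autosomal genes), with a median of -0.133 that was -0.074 without MommeD1 XX array 2. Beside Msx1, Ngfr, the p75 neurotrophin receptor, fell by 0.25 (adjusted p = 0.0239). It read 7.99, 7.88, 7.83 and 7.76 in MommeD1 XX embryos, against 8.19, 8.04, 8.01 and 8.24 in wildtype XX embryos, with no overlap. The XY log2 fold change was 0.19, and the difference of -0.45 ± 0.09 passed (adjusted p = 0.0382), although the XX call was lost without any of 4 arrays (adjusted p up to 0.0771). The difference was lost without MommeD1 XX array 2, 3 or 4 or wildtype XX array 1 or 4 (adjusted p up to 0.105), with no filter on dim probes (adjusted p = 0.102) and without the 3 arrays that had most yolk sac transcript (adjusted p = 0.218). Sox9 (-0.27), Twist1 (-0.07) and Tfap2a (0.08) did not pass.

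Cardiac genes had 2 rises and 1 fall among 18 (16.7% called, against 6.69% of all autosomal genes). Myl7, the atrial myosin light chain, read 11.44, 11.48, 11.54 and 11.51 on the MommeD1 XX arrays, against 11.02, 11.09, 10.69 and 10.93 on the wildtype XX arrays. The MommeD1 values were close together and all higher, a rise of 1.48-fold (log2 fold change 0.56 ± 0.09, adjusted p = 0.000927). Actc1, cardiac actin, rose by 0.30 (adjusted p = 0.0181), and Mef2c, a heart field transcription factor, fell by 0.34 (adjusted p = 0.0419); Actc1 lost its call without any of 3 arrays and Mef2c without any of the 8 (adjusted p up to 0.0582 and 0.0966), and both when their kept probes were averaged. Nkx2-5 (-0.04), Tnnc1 (0.17), Myl2 (0.10) and Nppa (0.03) did not pass. Nkx2-5 was read near the filter level of 7, with means of 7.123 in MommeD1 XX and 7.166 in wildtype XX embryos. The list median of 0.081 was 0.020 without MommeD1 XX array 3 and 0.134 without MommeD1 XX array 2.

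Neural progenitor genes gave 2 rises among 18 and no fall (11.1% called, against 6.69% of all autosomal genes). Hes5 is a Notch effector of neural progenitors whose promoter stretch at chr4:154960823-154960922, plus strand, is printed with the match to the RBPJ motif GTGGGAA (both strands searched, found in 6.38% of promoters) in capitals, because RBPJ is the DNA-binding partner of Notch.
Hes5: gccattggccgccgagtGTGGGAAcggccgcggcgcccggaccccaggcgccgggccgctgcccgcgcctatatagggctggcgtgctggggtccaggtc

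Hes5 read 9.95, 9.71, 9.72 and 9.48 on the MommeD1 XX arrays, against 9.32, 9.13, 9.17 and 9.18 on the wildtype XX arrays. The groups were separate, with a rise of 1.43-fold (adjusted p = 0.00175). Fgf15, a fibroblast growth factor of the developing neural tube, read 8.60, 8.80, 8.75 and 8.78 in MommeD1 XX embryos, against 8.11, 8.29, 8.26 and 8.33 in wildtype XX embryos. It rose 1.40-fold without overlap (adjusted p = 0.00045) and had 0.02 on the log2 scale in XY embryos, with a difference of 0.46 that did not pass (adjusted p = 0.0609). The Notch genes themselves stood at -0.05 (Notch1), -0.25 (Dll1, adjusted p = 0.0543) and -0.11 (Hes1), and Sox2 at 0.06. None of 19 neuronal differentiation genes passed and none had an unadjusted p under 0.05, Neurog2 and Elavl3 with log2 fold changes of 0.19 and 0.16. Elavl3 had means under the filter level of 7, at 6.866 in MommeD1 XX and 6.709 in wildtype XX embryos.

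**Figure D4:**
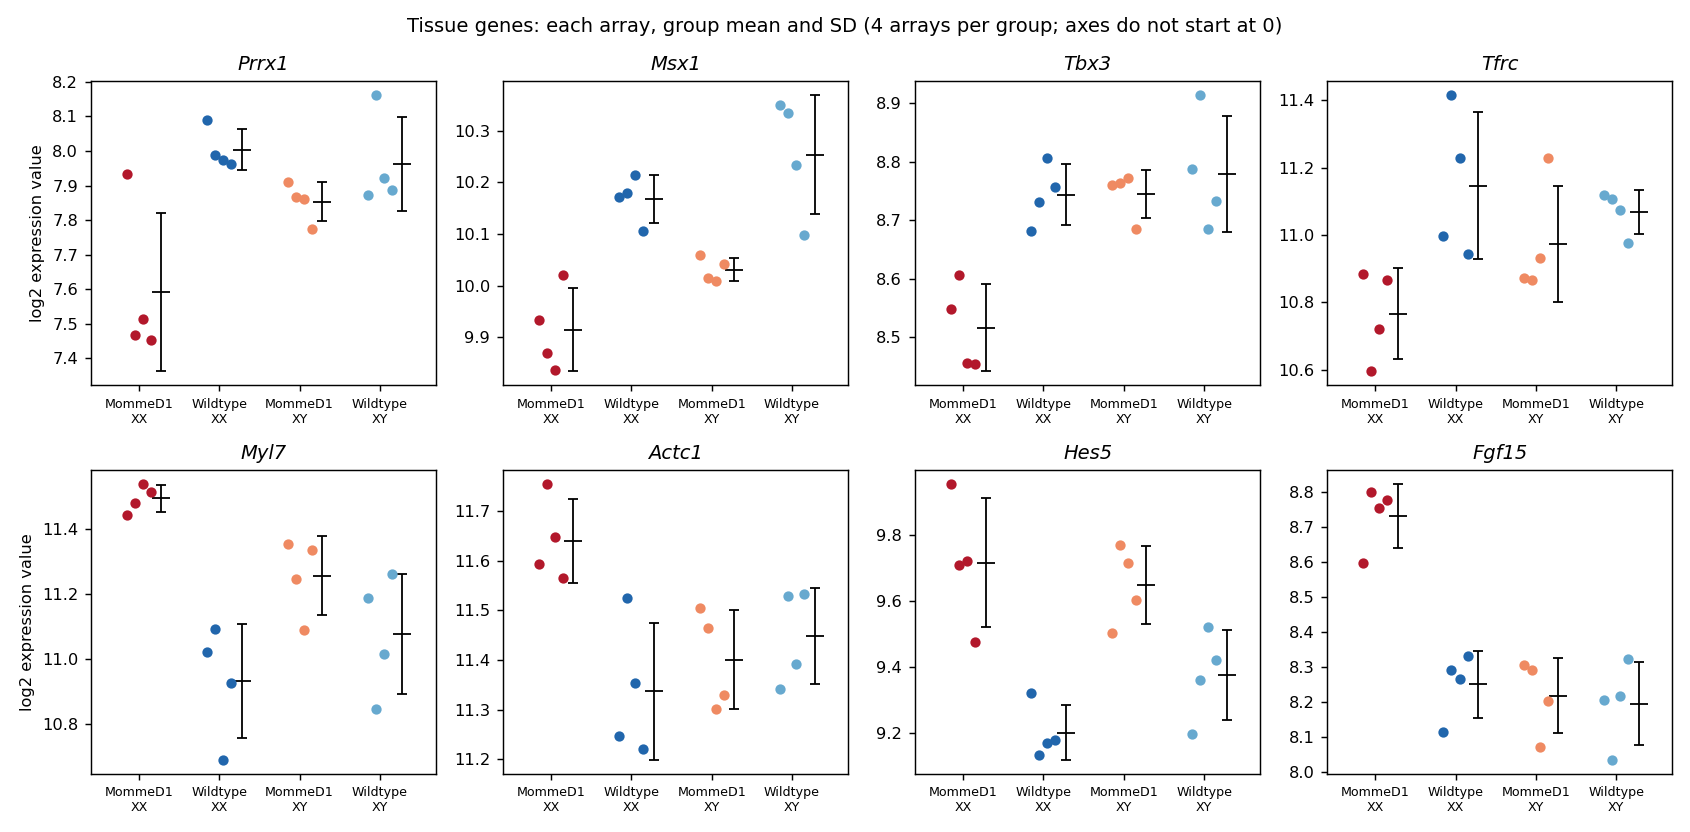
Log2 expression value (y axis, not starting at 0) of each array for 8 genes of limb, blood, heart and neural lists, with MommeD1 XX, wildtype XX, MommeD1 XY and wildtype XY from left to right, points for the 4 arrays of a group and bars for the mean and SD. For Myl7 the MommeD1 XX points lie between 11.44 and 11.54 and the wildtype XX points between 10.69 and 11.09.

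Among 20 endothelial genes 2 passed (10%, against 6.69% of all autosomal genes). Robo4, a guidance receptor of vessels, rose by 0.43 (adjusted p = 0.00513), and Tek, the angiopoietin receptor, fell by 0.34 (adjusted p = 0.00708), both without overlap. Pecam1 had -0.06 and Tal1, a haematopoietic and vascular transcription factor, -0.35 (adjusted p = 0.0789). Of 15 primitive erythroid genes 1 fell: Tfrc, the transferrin receptor, by 0.38 (adjusted p = 0.024), a call lost without any of 4 arrays (adjusted p up to 0.0754). Erythroid scores lay between -0.118 and -0.00556 in MommeD1 XX embryos and between -0.12 and 0.349 in wildtype XX embryos, where wildtype array 2 was the highest, and the list median of -0.133 was -0.004 without it. The embryonic globins Hba-x and Hbb-bh1 had log2 fold changes of 0.02 and 0.08, Klf1, an erythroid transcription factor, -0.13 and Slc4a1, the red cell anion exchanger, -0.42 (adjusted p = 0.301).

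Yolk sac endoderm transcripts varied more between arrays than between genotypes. Apoa1, an apolipoprotein, read 6.52, 11.33, 8.77 and 9.26 on the MommeD1 XX arrays, against 9.25, 7.09, 8.70 and 9.19 on the wildtype XX arrays. Afp, alpha-fetoprotein, read 6.26, 9.45, 6.96 and 7.49 in MommeD1 XX embryos, against 7.50, 6.80, 7.27 and 7.47 in wildtype XX embryos. MommeD1 array 2 was the highest and MommeD1 array 1 the lowest for both genes, and limma called none of the 12 genes, 0 of them with an unadjusted p below 0.05. The list median of 0.289 was -0.237 without MommeD1 XX array 2, and the part of this tissue in the other results was not tested beyond fits without the arrays concerned. None of 20 Hox genes passed, 3 with an unadjusted p under 0.05 (15%, against 24.2% of all autosomal genes). Of the 20, 16 were negative, while 46.7% of all autosomal genes were positive. Hoxd4 stood at -0.35, Hoxd9 at -0.39 and Hoxb7 at 0.18. Their median of -0.10 was -0.013 without MommeD1 XX array 3.

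The signalling lists held single calls, 4 of 72 distinct genes in all (5.56%, against 6.69% of all autosomal genes). Of 29 Wnt pathway genes 1 passed, the receptor Fzd2, which read 8.69, 8.72, 8.92 and 8.91 on the MommeD1 XX arrays, against 9.30, 9.17, 9.32 and 9.19 on the wildtype XX arrays. Fzd2 was 1.35-fold lower in MommeD1 (adjusted p = 0.000632) with no overlap, while Fzd7 (-0.23), Ctnnb1 (-0.15), Axin2 (-0.12) and Wnt3a (0.07) did not pass. Among 24 bone morphogenetic protein and transforming growth factor genes 19 were negative, with a median of -0.052, while 46.7% of all autosomal genes were positive. Of the 24, 1 passed (4.17%): Bmp1, a procollagen proteinase, which fell by 0.24 (adjusted p = 0.0336, groups overlapping). Bmp1 lost the call without any of 6 arrays (adjusted p up to 0.108) and when its kept probes were averaged (-0.13). Bmp4 had -0.19, Smad3 -0.27 (adjusted p = 0.0549) and Id2, a target of the pathway, 0.21. Rxrb, a retinoid X receptor, fell by 0.29 (adjusted p = 0.0166), not without MommeD1 XX array 4 or wildtype XX array 3 (adjusted p up to 0.0617). The mean of its kept probes gave -0.11 and no call, and its other probe gave 0.06. In the extracellular matrix list Loxl1, a lysyl oxidase, rose by 0.29 (adjusted p = 0.0368, groups overlapping) and lost the call without any of 6 arrays (adjusted p up to 0.11).

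**Figure D5:**
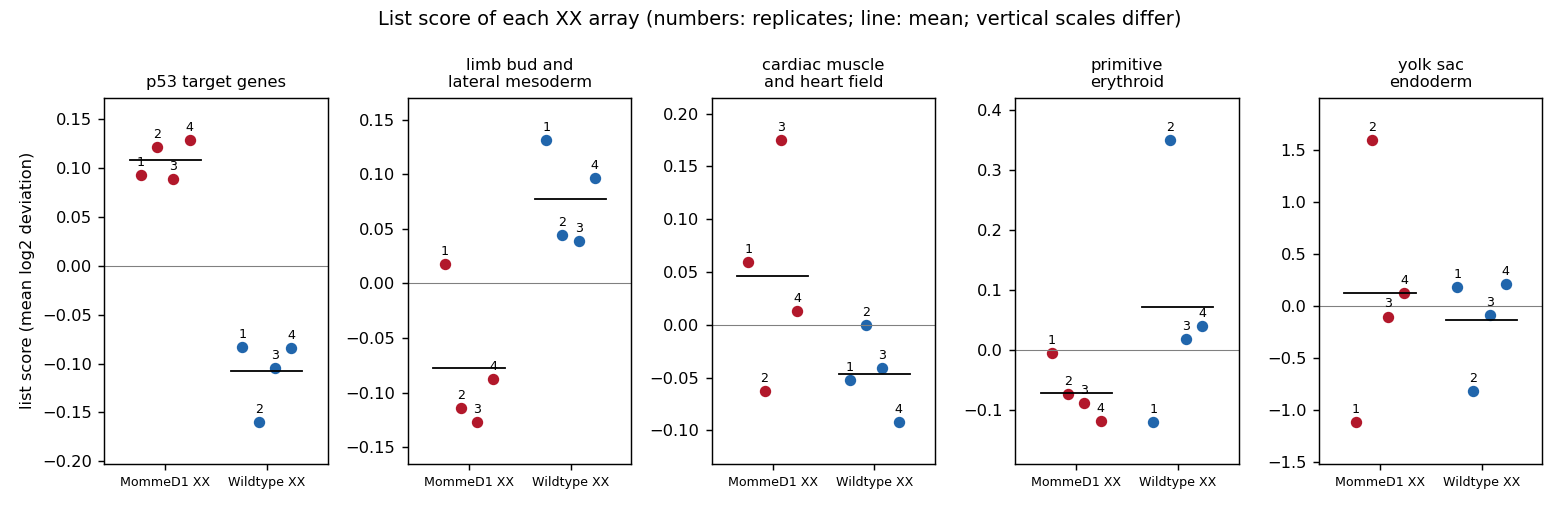
Mean centred log2 value of selected gene lists on each XX array, a point per array, MommeD1 XX left of wildtype XX. The p53 target scores are 0.0885 to 0.129 in MommeD1 XX embryos and -0.159 to -0.0831 in wildtype XX embryos.

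Over the lists as a whole, 688 distinct autosomal genes were tested, of which 29 rose and 24 fell (7.7%, against 6.69% of all autosomal genes), so the share of calls in the lists was near the background.

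The largest autosomal rises also included genes outside these lists. Mkrn3, an imprinted ubiquitin ligase gene, read 9.999, 9.74, 9.87 and 9.98 on the MommeD1 XX arrays, against 8.55, 8.77, 8.85 and 8.68 on the wildtype XX arrays. It rose 2.27-fold (adjusted p = 1.21e-07) and had 1.05 on the log2 scale in XY embryos, against 1.19 in XX. Ndn, the imprinted gene necdin beside it on chromosome 7, rose 1.58-fold, by 0.66 in XX against 0.53 in XY. Pcdhb22, a clustered protocadherin, and Csf2ra, a cytokine receptor subunit, were at least 2.12-fold and 1.51-fold higher in MommeD1 XX embryos, since their wildtype XX values (6.32 to 6.54 and 6.59 to 6.80) lay under the filter level of 7, where signal nears background. 4930555G01Rik and Commd3, a copper metabolism domain protein, each rose 1.45-fold. These 6 were picked among genes whose XX groups do not overlap, so their separation is no result. Pcdhb22 and Csf2ra passed the filter only through MommeD1 arrays, since their wildtype XY values also lay under 7.

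Among the 12 largest falls without overlap, beside Smchd1, Rpl7a, Fzd2 and Prrx1, were Otub2, a deubiquitinase, Arhgap32, Prtg, protogenin of the early neural tube, Rpap3, a cochaperone of RNA polymerase assembly, Fam117a, Dipk1a, Plcg2, a phospholipase, and Dedd2, a death effector domain protein. Otub2 fell by 0.51 (adjusted p = 4.47e-05), but the mean of its kept probes gave -0.12 and no call. Arhgap32, Prtg, Rpap3 and Fam117a fell by 0.46, 0.46, 0.44 and 0.42, and their XY log2 fold changes were -0.40, -0.41, -0.21 and -0.27. Prtg missed the threshold without MommeD1 XX array 1 or wildtype XX array 3 (adjusted p up to 0.0639), and Rpap3 without MommeD1 XX array 4 (adjusted p = 0.053). Dipk1a, Plcg2 and Dedd2 fell by 0.41, 0.41 and 0.39 in XX, with XY values of -0.17, -0.12 and -0.16.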

How the data were processed

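The deposited values are log2 expression values, which the authors made from Illumina BeadChip intensities with beadarray and limma. A table of non-normalized intensities was not used, because its 32 columns carry running numbers that tie to no embryo. Probes above 7 on at least 4 of 16 arrays were kept (9785 of 25697, 559 of them without a gene). Contrasts were fitted in limma 3.58.1 (R 4.3.3) over all 16 arrays and 4 groups, with Benjamini-Hochberg adjustment over 6999 genes and a threshold of 0.05. Replicates are separate embryos. Array number limits the precision, since arrays give no counts. The script was tested on simulated data.

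Named genes were Smchd1, 5 given markers, the 12 largest rises and falls without overlap, list members past the threshold, autosomal genes past it in the XX and XY difference, and up to 4 members of each list named for their role. The members and lists were chosen with earlier results of these data known, and the genes named for their role were picked after their values in this fit had been seen, so nothing is drawn from which of them were picked. Of 40 lists, 36 cover tissue, growth, stress and signalling and 4 cover cells of other origin; limma called no member of these 4 (decidua, trophoblast, leukocytes and germ cells), and 1 had an unadjusted p under 0.05. Alternatives were other filters, probe averaging, centring, chip and replicate blocks, single chips, array weights, trended and robust moderation, XX arrays alone and leaving arrays out.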

Additional observations from a re-analysis of the deposited data

Results flagged for a closer look

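In groups of 4 arrays, a single array stood far from the other 3 for 14 named genes and 4 list scores, among 338 groups examined, and chance alone marks about 1 in 20 groups. On MommeD1 XX arrays these were Arhgap32 (array 3, 8.17), Prtg (array 1, 8.42), Prrx1 (array 1, 7.93), Ak1 (array 4, 7.27), Rpl24 (array 4, 13.1), Heatr1 (array 1, 11.6), Chek2 (array 1, 8.18), Hmox1 (array 2, 7.06), Vegfa (array 2, 9.85), Fbl (array 4, 12.5) and Hbb-bh1 (array 2, 14.9). On wildtype XX arrays they were Rpap3 (array 4, 8.98), Rps27l (array 3, 13.4) and Atm (array 2, 8.05). The scores were the integrated stress response on MommeD1 XX array 4 (0.0668), DNA replication on MommeD1 XX array 2 (0.022), mitosis on wildtype XX array 3 (0.0714) and somite and myotome on wildtype XX array 3 (-0.11).

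The XX effect differed from the XY effect by limma's test of the difference for Cdkn1a (0.87), Ccng1 (0.68), Phlda3 (0.51) and Ngfr (-0.45) on the log2 scale. The test was lost for Ngfr without any of 5 XX arrays in turn and for Phlda3 without wildtype XX array 1, and for both without the 3 arrays that had most yolk sac transcript.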

How the results depend on the processing

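The 452 autosomal calls numbered 232 with no filter on dim probes, and 15 on chip 1 alone and 21 on chip 2 alone, each with 2 arrays per group. They numbered 266 when the 3 arrays with most yolk sac transcript were left out, and between 239 and 384 when 1 XX array was left out. The count was 627 with chip as a block, 545 with trended and robust moderation, and 515 with probes above 8 on at least 4 arrays. Genes past the threshold in the difference between XX and XY effects, 25 in all, numbered 0 on each chip alone and 14 without the 3 arrays, and 16 to 27 with 1 array left out. Centring each array made 56.6% of calls higher, against 48.7%. In their deviations from the group mean, same-numbered MommeD1 and wildtype XX arrays correlated at 0.00166, 0.0762, 0.40 and 0.135. MommeD1 XX arrays 1 and 2 correlated best with a wildtype array of another number, and arrays 3 and 4 with their own number. Whether the replicate numbers pair the embryos cannot be told from these values. With the replicate block 540 autosomal genes passed, 435 of them shared with the main fit, and the call of Rheb was lost. Of 68 named genes past the threshold, none changed sign and 7 passed under every alternative that tested them. Of these 7, Pcdhb22 was tested under 19 alternatives and the others under 20, since it did not pass the filter of above 8 on at least 4 arrays. Averaging probes ended the calls of Otub2, Asns, Eif4g2, Actc1, Mef2c, Bmp1 and Rxrb.

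Of 65 named genes not past the threshold, 15 passed it under an alternative (45 of 1287 values), among them Bcl2l11, Hsph1, Fbl, Ddit4, Dll1, Fzd7 and Smad3, each under 3 or more. Another 22 changed sign under an alternative (51 values), and no such value passed it. On chip 1 alone the log2 fold changes were 0.00227 for Atm, 0.00941 for Chek2, -0.105 for Slc30a1, -0.118 for Slc2a1, -0.0262 for Cdk1, 0.0279 for Npm1, -0.0398 for Igf2 and -0.0411 for Tfap2a. On chip 2 alone they were -0.0148 for Vegfa, -0.0498 for Rb1, -0.183 for Bbc3, 0.129 for Nkx2-5, -0.0747 for Nppa, 0.0163 for Pecam1, -0.0112 for Hbb-bh1 and -0.148 for Afp. Averaging probes gave -0.0169 for Vegfa and -0.0491 for Rb1, and array weights -0.0043 for Bbc3. Without the 3 arrays they were -0.0282 for Bbc3, 0.0182 for Nkx2-5, -0.362 for Afp, -0.0135 for Hba-x and -0.371 for Apoa1. With 1 array left out they ran between -0.0214 and 0.044 for Rb1, -0.0703 and 0.00281 for Atm, -0.0111 and 0.0324 for Cdk1, -0.0944 and 0.0111 for Npm1, -0.00943 and 0.0644 for Igf2, -0.0584 and 0.0565 for Bbc3, -0.10 and 0.0182 for Nkx2-5, -0.093 and 0.138 for Nppa, -0.362 and 0.702 for Afp, -0.0584 and 0.11 for Hba-x, -0.371 and 1.23 for Apoa1, -0.00481 and 0.17 for Myl2, -0.148 and 0.0499 for Notch1, -0.233 and 0.0315 for Klf1 and -0.0536 and 0.00758 for Casp9. The cause of these shifts was not tested.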

Other observations

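Some further genes past the threshold belonged to no list and were chosen after their values were seen. Among those that rose in MommeD1 XX embryos were Cox14, Coa6 and Cox18, which take part in assembly of cytochrome c oxidase, with log2 fold changes of 0.39, 0.37 and 0.35. Cav1, the caveolar coat protein, and Ltbp4, a latent transforming growth factor binding protein, each had 0.43, and Gabarap, an autophagy protein, had 0.45. Among the falls, Cited2, a transcriptional coregulator, had -0.40, Plag1, a zinc finger growth regulator, -0.37, and Zeb2, a zinc finger repressor of neural crest, -0.33. Other falls were -0.36 for Hnrnpk, an RNA-binding protein, -0.34 for Papola, a poly(A) polymerase, -0.29 for Upf2, a nonsense-mediated decay factor, and -0.35 for the splicing protein Snrpg.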
